A study of Homo sapiens with 2 samples.

Results

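The cells described here are the PC9 cells that carried the hashtag HTO_D in a pooled run of single-cell RNA sequencing. They were chosen on their measured counts: a droplet barcode was taken as an HTO_D cell where HTO_D was its highest hashtag, with at least 10 unique molecular identifiers (UMIs) and at least 3 times the second highest hashtag. By this rule 1939 of the 15324 barcodes were HTO_D cells, or 12.7% (exact 95% binomial interval 12.1 to 13.2%). The same rule assigned 14011 barcodes to 1 of the 8 hashtags, and HTO_D cells were 13.8% of these.

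PC9 is a line of human lung adenocarcinoma cells whose EGFR, the growth factor receptor on which they depend, has a deletion in exon 19. The pool held 8 untreated populations, each expressing a nuclear label: the sublines DS3, DS6, DS7, DS8 and DS9, each grown from 1 cell of PC9-VU, and 3 versions of the cell line itself, PC9-MGH, PC9-BR1 and PC9-VU. PC9-BR1 came from PC9-VU after growth in rising doses of the EGFR inhibitor afatinib, and is the version that carries the EGFR mutation T790M. Each population received 1 ng of its own hashing antibody before pooling, 10x Genomics version 2 chemistry was used, and 15400 cells were obtained where 20000 had been aimed at. The labels and text used here pair no hashtag with a population, so the HTO_D cells are not assigned to any of the 8, and a property of the cells cannot be told apart from a property of the antibody or of the staining.

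In cell hashing an antibody against surface proteins that are present on nearly all human cells is coupled to a DNA oligonucleotide, the hashtag. The hashtag is captured in the droplet together with the messenger RNA of the cell and receives the same droplet barcode, so that sequencing it tells from which tube a cell came. The number of hashtag molecules on a cell depends on how much antibody it bound, and free or detached antibody in the suspension gives every droplet a low background of all hashtags. UMIs are meant to count each captured molecule once, whereas reads also count the copies made by PCR.

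The hashtag sequences are shown because they are the measured features, and because the level of HTO_D could be read only where a sequence was told apart from the other 7. Each is 15 bases long, and capitals in a line below HTO_D mark the positions at which that hashtag has the same base as HTO_D.
HTO_D: agtaagttcagcgta
HTO_A: gtcAAcTctttaGcg
HTO_B: tGatgGcctAttGgg
HTO_C: ttccgccTCtcttTg
HTO_E: AagtAtcgtttCGcA
HTO_F: gGTtgccagAtgtcA
HTO_G: tGTcttTcCtGCcag
HTO_H: ctcctcTgCAattac
HTO_D differed from HTO_G at 9 positions, the smallest number, and from HTO_C and HTO_H at 12. HTO_D holds 6 bases that are G or C, as does HTO_E, and the others hold 7 or 8.

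Both deposited matrices covered the same 15324 barcodes, 1 in reads and 1 in UMIs, and neither held genes. A barcode had between 201 and 42541 hashtag reads and between 88 and 11616 hashtag UMIs. The HTO_D cells held 12496153 reads and 2682958 UMIs of HTO_D. All cells came from 1 pooled library without a replicate, so no test between hashtags was made, and the intervals given here cover counting error only. Reads and UMIs are counts of the same molecules and put the HTO_D cells in nearly the same order, with a Spearman rho of 0.996 over the 1939 cells, so the reads are not an independent check of the UMIs.

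HTO_D was far above the second hashtag in most of its cells. The median ratio was 48.0, with a 25th to 75th percentile of 25.5 to 73.5. The HTO_D cell nearest the limit had 241 UMIs of HTO_D and 79 of the second hashtag, a ratio of 3.05, and the nearest barcode outside it had 1738 and 583, a ratio of 2.98. Of the HTO_D cells 56 had a ratio below 6, or 2.89% (2.19 to 3.73%), and among the other hashtags this share ran from 2.51% for HTO_E to 16.1% for HTO_B. The limit of 10 UMIs removed no HTO_D cell, since the lowest had 109 UMIs. HTO_D was also the highest hashtag in 258 barcodes whose second hashtag was too close for the rule. Their HTO_D level had a 25th to 75th percentile of 81 to 1925.5 UMIs, a span that included low and high levels, and HTO_C was second in 114 of them.

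The level of HTO_D was spread more widely than that of any other hashtag, in UMIs and in reads. HTO_D was picked for description because of its wide spread, so this rank is no independent result. The HTO_D cells had a median of 1393 UMIs (interval 1336 to 1467), with a lowest value of 109, a 10th percentile of 403, a 25th of 726.5, a 75th of 1947.5, a 90th of 2386.4 and a highest of 4006. The 75th percentile was 2.68 times the 25th (interval 2.44 to 2.92). The nearest hashtags by this width were HTO_B at 2.28 (2.07 to 2.51) and HTO_H at 2.17 (1.98 to 2.42), and the interval of HTO_B overlapped that of HTO_D. HTO_B and HTO_H were dim, with medians of 338 and 719.5 UMIs. No barcode had fewer than 201 hashtag reads, which left these 2 hashtags less room on the low side. The other 5 hashtags had medians of 1193 to 1554.5 UMIs and widths of 1.44 for HTO_G, the narrowest, to 1.82 for HTO_F. Between the 10th and the 90th percentile HTO_D spanned 5.92-fold, HTO_H 4.72-fold and HTO_G 2.49-fold, and the SD of log2 UMIs was 1.05 for HTO_D against 0.74 to 0.88 for the others.

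The same cells were spread further in reads. HTO_D cells had a median of 4417 reads (interval 4025 to 4797), with a lowest value of 197, a 25th percentile of 1533, a 75th of 9471 and a highest of 34419. The 75th percentile was 6.18 times the 25th (5.33 to 7.17), against 3.40 (2.88 to 3.86) for HTO_A, the next widest, and 2.32 for HTO_G. Here the interval of HTO_D lay above those of all other hashtags. The intervals cover counting error only and HTO_D was picked for its spread, so this is a description and no test. The 90th percentile was 20.4 times the 10th, where the next value was 10.6 for HTO_F.

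**Figure D1:**
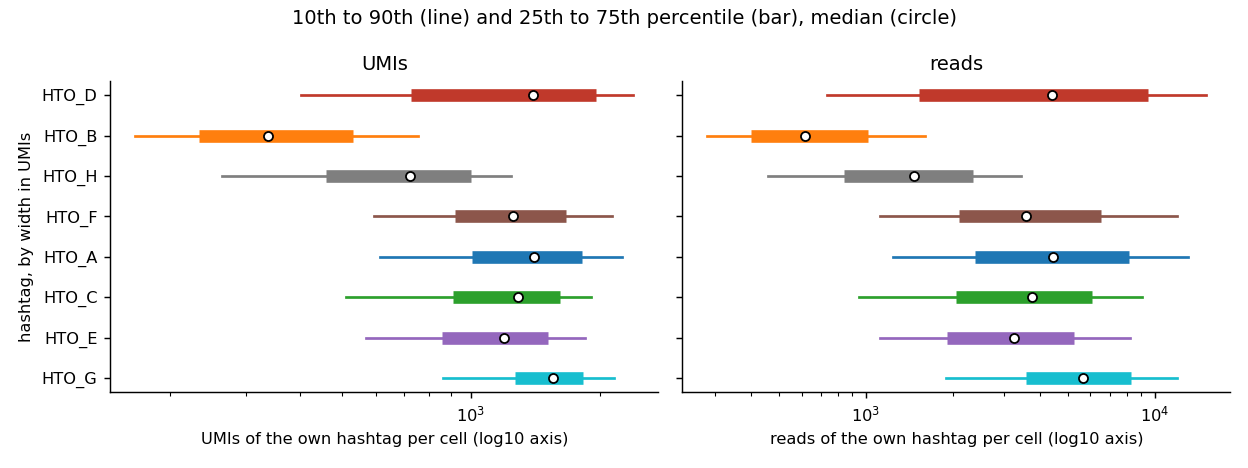
Level of the own hashtag in the cells of each hashtag, in UMIs (left) and reads (right) per cell on log10 axes, ordered by width in UMIs. Lines run from the 10th to the 90th percentile, bars from the 25th to the 75th, and circles are medians; the HTO_D bar covers 726.5 to 1947.5 UMIs and is the longest in both panels.

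The spread of HTO_D reached out to both sides. At the 5th, 10th and 25th percentile HTO_D ranked 6th of the 8 hashtags from the highest, above HTO_B and HTO_H only, at the median it ranked 3rd, and at the 75th, 90th and 95th it ranked 1st, and these ranks held in UMIs and in reads. Its 75th percentile of 1947.5 UMIs stood above the 1822.25 of HTO_G, the next, while its 25th percentile of 726.5 UMIs stood below the 855 to 1267 of HTO_A, HTO_C, HTO_E, HTO_F and HTO_G. The HTO_D cells thus held both the brightest upper 25% of all hashtags and a lower 25% that was dimmer than that of the 5 other hashtags with a similar median.

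In UMIs the lower side was the longer one on a ratio scale. There the median was 1.92 times the 25th percentile and 5.64 times the 5th, against 1.23 to 1.57 times and 2.37 to 4.08 times for the others. Upward, the 75th percentile was 1.40 times the median and the 95th 1.91 times, within the 1.17 to 1.57 and 1.52 to 2.79 of the other hashtags. In reads HTO_D was the widest in both directions. Its median was 2.88 times the 25th percentile, its 75th percentile 2.14 times the median (others 1.48 to 1.83) and its 95th 4.48 times the median (others 2.67 to 4.41). Of the HTO_D cells 161 had UMIs more than 4 times below the median and 0 had UMIs more than 4 times above it. Together they were 8.30% (7.11 to 9.62%), and the shares of the other hashtags ran from 1.03% for HTO_B to 5.15% for HTO_C. HTO_B, with a median of 338 UMIs and a lowest cell of 108, had 0 cells on the low side, where its level left little room. The lowest cells of all 8 hashtags were close, at 108 to 122 UMIs and 185 to 202 reads. No barcode had fewer than 201 hashtag reads, so cells below such a level could not be seen. The widths and shares describe only the barcodes present, and the low side of dim hashtags has the least room. With a limit of 2 times the median in place of 4, the share was 26.5% for HTO_D and 24.0% for HTO_B. In reads the share beyond 4 times was 24.3% (22.4 to 26.3%), with 337 cells below and 134 above, and the highest other share was 13.9% for HTO_A.

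Whether the HTO_D level had 1 or 2 modes depended on the unit and the scale. The log2 scale was the planned one, and the linear scale was chosen after seeing the data. A mode was counted where a smoothed density of the cells had a peak whose height, and whose prominence above the deepest point toward a higher peak, were each at least 5% of the highest peak. On a log2 scale the UMIs had 1 mode, at 1859 UMIs, with a shoulder on its lower side. On a linear scale the same UMIs had 2 modes of almost equal height, at 650 and 1816 UMIs, with a valley at 1161 UMIs. The lower mode stood at 93.4% of the height of the upper, the valley at 71.2%, and the prominence of the lower mode was 22.2%. In bins of 100 UMIs, HTO_D cells numbered 108 from 500 UMIs and 104 from 1800 UMIs, with 62 from 900 and 62 from 1000 in between.

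In reads the order of the scales was the opposite. The log2 reads of HTO_D had 2 modes, at 1687 and 8599 reads, with a valley at 2856 reads. The lower mode had 66.6% of the height of the upper and the valley 61.2%, so the prominence of the lower mode was 5.42%, just past the 5% that was asked. On a linear scale the reads had 1 mode, at 1461 reads. The cells stood in nearly the same order in both units, so these numbers of modes describe 1 ordered set of cells on different scales.

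**Figure D2:**
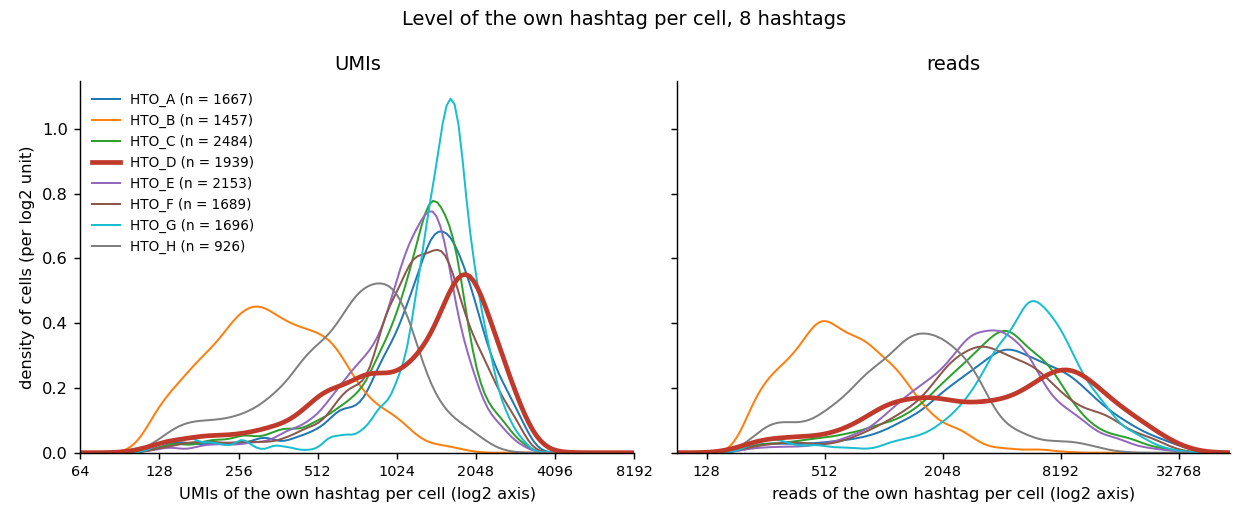
Smoothed density of cells over the UMIs (left) and reads (right) of the own hashtag, on log2 axes, for the cells of each of the 8 hashtags, with HTO_D as the thick line. HTO_D has a peak at 1859 UMIs with a shoulder below it, and in reads a low peak at 1687 and a higher one at 8599.

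The 2 modes of linear UMIs, a scale chosen after seeing the data, changed less under other smoothing than those of log2 reads. The modes of linear UMIs were found at 0.5 times the bandwidth (561 and 1857 UMIs) and at 2 times (738 and 1741 UMIs), and merged into 1 at a factor of 2.09. For 6 of the other hashtags the linear UMIs had 1 mode from factors of 0.30 to 0.58 upward. The exception was HTO_G, with a small second mode at 195 UMIs of 18.7% of the height of its main one at 1596, which was lost at a factor of 1.66. In log2 reads the 2 modes of HTO_D merged at a factor of 1.05, close to the bandwidth used, and again only HTO_G had 2 modes, with 1 at 267 reads of 8.93% of the main height. The modes of HTO_G in log2 reads had the larger prominence, 6.24% against 5.42%, and merged at the larger factor, 1.46. In log2 UMIs a second mode of HTO_D, at 815 UMIs, appeared at 0.5 times the bandwidth with a prominence of 6.40%, as second modes also did for HTO_A and HTO_F. At the bandwidth used, the lower mode of HTO_D was the higher one in relative height, 93.4% of the main mode in linear UMIs and 66.6% in log2 reads, against 18.7% and 8.93% for HTO_G. At 0.5 times the bandwidth, close pairs of high modes also appeared for HTO_F in log2 UMIs (1184 and 1541 UMIs, the lower at 98.0% of the height) and for HTO_E in log2 reads (2937 and 3875 reads, 98.9%) and linear UMIs (1138 and 1326 UMIs).

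**Figure D3:**
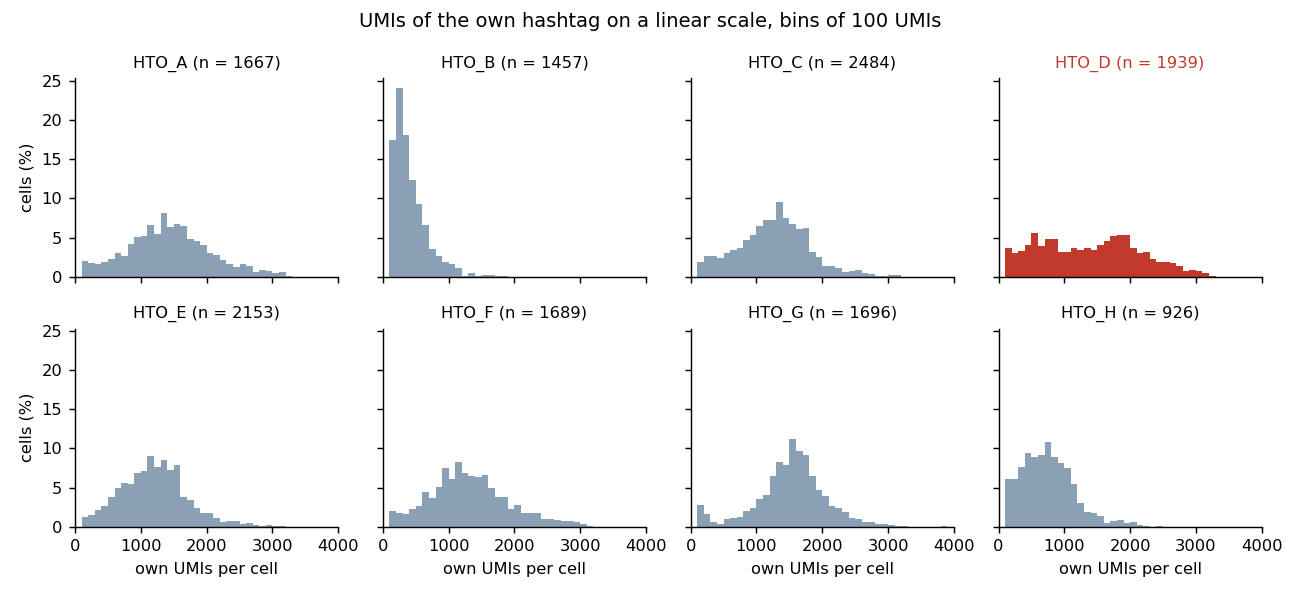
UMIs of the own hashtag per cell in bins of 100 UMIs on a linear axis up to 4000, as the percentage of the cells of each hashtag. HTO_D, in red, is flat with humps near 650 and 1816 UMIs, while the other hashtags have 1 main hump each, HTO_G with a small further one near 195 UMIs.

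The choice of cells left the 2 modes of linear UMIs in place and moved those of the log2 reads across the limit. With a ratio of at least 2 or 5, the cells called by HTODemux, the rule applied to reads, or without 2 sets of doubtful barcodes described below, the prominence in linear UMIs was between 19.9% and 25.6%. In log2 reads it was between 4.88% and 6.74%, and 4 of these choices fell below 5% and so gave 1 mode.

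Normal distributions fitted to the log2 levels described the same shape without smoothing. With 2 components, the UMIs of HTO_D divided into a narrow one centred at 1890 UMIs (SD 0.35 on the log2 scale) with 47.8% of the cells, and a broad one centred at 699 UMIs (SD 1.00) with 52.2%. The upper component of HTO_G, the narrowest hashtag, was centred at 1592 UMIs with an SD of 0.36, and held 88.8% of the cells. In the other 6 hashtags the upper component held 69.2 to 83.5%. With 3 components the bright group of HTO_D was almost the same (1927 UMIs, SD 0.34, 48.7%), and the broad one divided into 45.2% at 796 UMIs and 6.09% at 196 UMIs. The upper components of the other hashtags were smaller with 3 components than with 2, from 54.7% for HTO_A to 75.5% for HTO_G, so the distance between HTO_D and the others in this share depended on the number of components. The Bayesian information criterion was lowest for 3 components in both units, and fell by 579.5 in UMIs and by 232.2 in reads from 1 component to 2. This was not particular to HTO_D. The criterion was lowest at 2 or 3 components for all 8 hashtags in both units, and from 1 component to 2 it fell by 1327 in UMIs and 547.2 in reads for HTO_G and by 882.6 in UMIs for HTO_C. A lower criterion says that 1 normal curve on the log2 scale described the levels less well, which a skewed single group would also give.

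Divided at the valley of 2856 reads, the HTO_D cells formed a dim set of 770 cells, 39.7% (37.5 to 41.9%), and a bright set of 1169 cells, 60.3%. The dim set had a median of 610.5 UMIs (25th to 75th percentile 400.75 to 826) and 1216.5 reads, and the bright set 1847 UMIs (1526 to 2200) and 8381 reads. The bright set was therefore 3.03-fold higher in UMIs and 6.89-fold higher in reads, which is a description since the division was made on these levels. A division at the UMI valley of 1161 placed 1889 cells, or 97.4%, on the same side. A share of cells below 2856 reads was not particular to HTO_D: it was 30.3% for HTO_A, 36.9% for HTO_C, 38.5% for HTO_F and 42.1% for HTO_E, 17.5% for HTO_G, and 83.0% and 97.9% for the dim HTO_H and HTO_B.

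The other 7 hashtags in HTO_D cells moved little over this range. The rule allowed no hashtag above a level 3 times below that of HTO_D, which limits the background of dim cells more than that of bright ones, so these values are a description and no independent measure. Their summed background had a median of 118 UMIs per HTO_D cell (interval 117 to 119, 25th to 75th percentile 101 to 136.5). In cells of the other hashtags the sum of the 7 not their own had medians of 120 to 143 UMIs. The dim HTO_D cells had 111 background UMIs (108 to 113) and the bright ones 123 (121 to 124), a ratio of 1.11 where HTO_D itself differed 3.03-fold. For each of the 7 hashtags alone the ratio of bright to dim was between 1.11 and 1.22.

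The background had a median of 107 UMIs (103 to 110) in the 25% of cells with the lowest HTO_D and of 125 (123 to 127) in the 25% with the highest, 1.17-fold more, while the median HTO_D rose 4.84-fold. The Spearman rho between HTO_D and the background over the cells was 0.30, and the 2 quantities share the cell and its depth. The other hashtags had background ratios of 1.08 to 1.37 between the same parts of their own range, with own levels rising 2.12- to 3.90-fold. In the brighter bins, where this limit is far above the background, the median was 122 UMIs in cells with 2000 to 4000 HTO_D reads and 130 UMIs in cells with at least 16000, with HTO_D at 1111 and 2694 UMIs.

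The 7 background hashtags were unequal among themselves. HTO_C was the most abundant background hashtag in HTO_D cells, with a median of 25 UMIs, followed by HTO_B with 20, HTO_A and HTO_E with 19 each, HTO_G with 13, HTO_F with 10 and HTO_H with 8. HTO_C was the second hashtag in 1017 of the 1939 HTO_D cells, in 48.2% of the dim and 55.3% of the bright set. In the opposite direction, HTO_D had a median of 30 UMIs (25th to 75th percentile 24 to 36) in the 12072 cells of the other 7 hashtags, and 28 to 32 within each. That is the background level of HTO_D, and the lowest HTO_D cell, at 109 UMIs, was above it. The rule and the lowest total of 88 hashtag UMIs per barcode nearly fixed this in advance. It therefore cannot show that the dimmest HTO_D cells were stained.

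**Figure D4:**
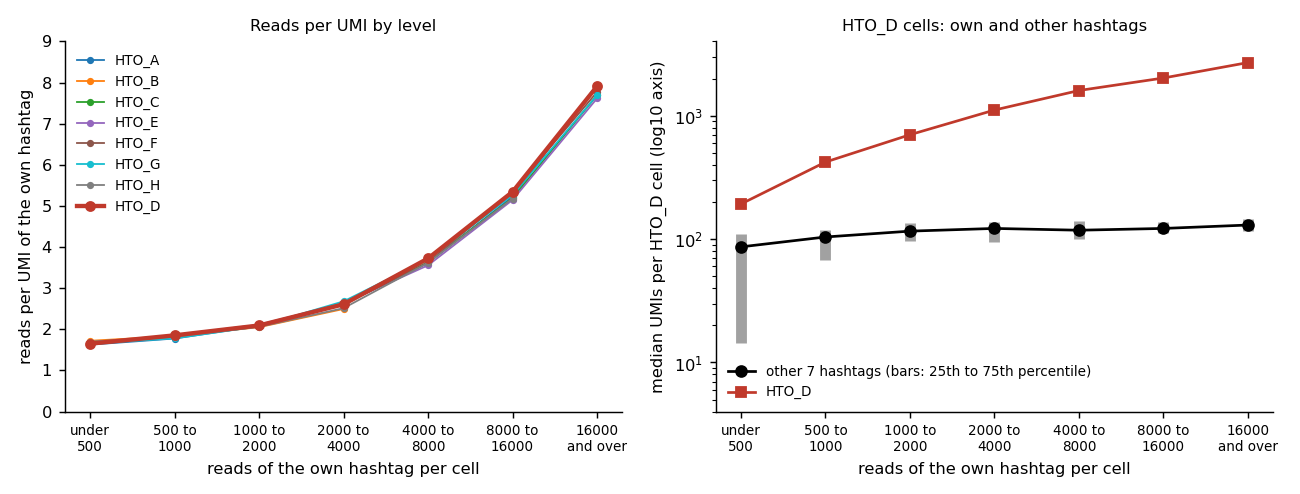
Left, reads per UMI of the own hashtag by its reads per cell, for the 8 hashtags (bins with fewer than 20 cells left out); right, median UMIs of HTO_D (squares) and of the other 7 hashtags together (circles, bars from the 25th to the 75th percentile) in HTO_D cells by the same bins, on a log10 axis. The 8 lines on the left nearly coincide, and on the right HTO_D rises from 192.5 to 2694 UMIs while the others go from 86.5 to 130 UMIs.

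HTO_D had more reads per UMI than any other hashtag over its cells, 4.66, against 2.04 for HTO_B to 4.30 for HTO_A, and the value was higher in its bright cells. Reads per UMI were 2.13 in the dim set and 5.19 in the bright set. They rose with level from 1.65 in the 120 cells with under 500 HTO_D reads, through 2.09 in the 331 cells with 1000 to 2000 reads and 3.72 in the 394 cells with 4000 to 8000, to 7.91 in the 167 cells with at least 16000. Cells of other hashtags with as many reads had nearly the same values: 1.63 to 1.72 below 500 reads, 2.05 to 2.11 from 1000 to 2000, and 7.61 to 7.95 from 16000 over the 5 hashtags with enough cells there. HTO_D lay outside the range of the others in 1 of 7 bins, from 4000 to 8000 reads, with 3.72 against 3.56 to 3.70. The median over cells was 3.16, 3rd of the 8 hashtags.

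Within the same HTO_D cells the background hashtags had 1.63 to 1.68 reads per UMI in all 7 bins, while HTO_D itself went from 1.65 to 7.91. Whether UMIs counted molecules equally well at low and high levels was not tested. The bins were made on HTO_D reads, which are also the numerator of its reads per UMI. How much of the rise of HTO_D comes from the binning was not tested.

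Barcodes with a low background took a larger share of the HTO_D cells than of the cells of other hashtags, though the interval overlapped that of HTO_A. Fewer than 50 UMIs of the other 7 hashtags were found in 112 HTO_D cells, 5.78% (4.78 to 6.91%), against 1.08% for HTO_H to 3.78% for HTO_A (2.92 to 4.81%). Of the 112 HTO_D cells, 32 had fewer than 10. The median HTO_D level of the 112 was 485 UMIs, against 1467 in the remaining HTO_D cells. Low-background cells of every other hashtag were also dimmer than the rest, with 513 against 1423 UMIs for HTO_A and 348 against 1563 for HTO_G. In the bin below 500 HTO_D reads, background had a 25th to 75th percentile of 14.5 to 109 UMIs, the widest of all bins.

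Some of these barcodes were near copies of another one. Over all barcodes 129 pairs differed at 1 of their 16 bases. The member of the pair with fewer hashtag reads was an HTO_D cell in 37 instances. These were 1.91% of the HTO_D cells (1.35 to 2.62%), against 0.108 to 1.00% for the other hashtags. The larger barcode had HTO_D as its highest hashtag in 37 of 37. The smaller barcodes had medians of 239 HTO_D UMIs and 346 HTO_D reads and of 7 background UMIs, and 35 of the 37 had fewer than 50 background UMIs. All 37 were in the dim set. Without them, as without all cells under 50 background UMIs, the log2 reads had 1 mode and HTO_D was still the widest hashtag in both units.

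Droplets that held a pair of HTO_D cells cannot be told from those that held 1. Droplets with a second hashtag close to HTO_D were left out by the rule. HTODemux, which also calls droplets with several hashtags, was run as an alternative, and no caller based on genes was run. How the level of HTO_D relates to cell size, cell state or population was not tested, since no genes were analysed here.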

How the data were processed

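Hashtag sequences were counted per droplet barcode by the authors with CITE-seq-Count, and raw read counts and UMI counts were deposited without normalization. How UMIs were merged, the mismatches allowed and the choice of barcodes are not given in the sources used here. The processing notes also name Cell Ranger 3.0.2 and Seurat. Reads are filed with the mRNA library, but the rows of that matrix are hashtags. Both libraries were made from the same droplets and were taken as 1 library. The row of unmapped sequences was left out.

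The members and all comparisons were chosen with earlier results of these data known, and HTO_D itself was picked for its wide spread. Of the 8 hashtags all are reported, the nearest to HTO_D being the 2 with the closest width, and no barcode is named. Width was the 75th over the 25th percentile, with an order-statistic interval (each percentile at 97.5%), and shares have exact binomial (Clopper-Pearson) intervals at 95%. Densities were Gaussian kernels with the bandwidth 0.9 × min(SD, interquartile range/1.34) × n to the power -0.2. Mixtures were fitted with scikit-learn 1.9.0 (5 starts, seed 1), and HTODemux of Seurat 5.3.0 (positive quantile 0.99, seed 42) gave alternative cells. The density and mixture steps were tested on simulated data. Python 3.11.15, numpy 2.4.6, scipy 1.17.1, matplotlib 3.10.9 and R 4.3.3 were used. No p-value was computed, because cells within a library are no replicates.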

Additional observations from a re-analysis of the deposited data

Results flagged for a closer look

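Sequences that matched no hashtag, which entered no comparison above, made up 160852 UMIs in the HTO_D cells, 5.21% of their UMIs (5.18 to 5.23%) and 1.89% of their reads. There is no control sample for this row. HTO_D lay within the range of the other hashtags, whose share of UMIs ran from 3.09% for HTO_E to 5.52% for HTO_B. In HTO_D cells the median number of unmapped UMIs was 31 in the dim and 103 in the bright set, 3.32-fold higher, while the other 7 hashtags differed 1.11-fold. A rise with the own level was seen in cells of every other hashtag too, for HTO_A from 7 UMIs under 500 reads to 205 from 16000 reads. As a share of reads the unmapped sequences made up 3.17% in cells with under 500 HTO_D reads and 3.45% from 500 to 1000. The share then fell with level to 1.68% in cells with at least 16000. For every other hashtag the share was also lower in the highest bin than in the lowest, for HTO_A 1.54% against 3.04%.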

How the results depend on the processing

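Of 67 alternative values, 39 stayed within the counting interval of the value reported or at the same number of modes, and 28 did not. Some of the 28 were other measures, which that interval does not cover. These include the ratio of the 90th to the 10th percentile, the SD of log2, the limit of 2 times from the median and the number of components. The count is therefore no measure of how far the results depend on processing. HTO_D was the widest hashtag in 9 of 9 alternatives in UMIs and in 9 of 9 in reads, among them the ratio of the 90th to the 10th percentile (5.92 in UMIs, 20.4 in reads) and the SD of log2 (1.05 and 1.70). Most alternatives used nearly the same cells, and HTO_D had been picked for its spread. These ranks therefore repeat the description and add no independent support. HTODemux gave 1810 HTO_D cells, with 4.64 reads per UMI and 116 background UMIs. Leaving out cells under 50 background UMIs gave 1827 cells, 7.01% of them more than 4 times from the median, 4.71 reads per UMI and 120 background UMIs. In UMIs there were 2 modes at 0.5 times the bandwidth and on the linear scale, and 3 components by the information criterion. In reads there was 1 mode at 2 times the bandwidth, on the linear scale, at a ratio of at least 2, by the rule on reads, without the smaller barcodes of pairs and without cells under 50 background UMIs, and there were 3 components. A limit of 2 times from the median held 26.5% of the HTO_D cells outside it, against 8.79% for HTO_G to 24.0% for HTO_B. Reads per UMI were 4.64 at a ratio of at least 2, 4.65 at 5, 4.69 by the rule on reads, 4.67 without the smaller barcodes and 3.16 as a median over cells, and the background was 193 UMIs with the unmapped row. The limit of 100 UMIs removed 0 HTO_D cells, tested nothing and is not counted here. The linear scale and the omission of cells under 50 background UMIs were chosen after seeing the data. The cause of these moves was not tested. Reads and UMIs were matched by barcode, and no paired test was made because no groups were compared. With 1 library, the spread between stainings or runs is unknown.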
